A study of Mus musculus with 12 samples.

Results

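Guanylate-binding proteins (GBPs) were examined at the transcript level in regulatory T cells (Treg) with and without the transcription factor Ikaros. The 8 genes Gbp2, Gbp3, Gbp4, Gbp5, Gbp6, Gbp7, Gbp8 and Gbp9 were taken by symbol from the 36222 genes of the deposited table, where each symbol had 1 identifier. RNA-seq libraries came from splenic CD4+ YFP+ Treg of individual mice on a B6 background, 6 to 8 weeks old. All mice carried the Foxp3-YFP-Cre driver, which acts in cells that express Foxp3. Wild-type (WT) mice carried the driver alone, and Ikzf1 conditional knockout (cKO) mice also carried a floxed Ikzf1 allele, so that Ikaros was removed in the Foxp3+ lineage only and other cells of the host kept it. Cells were either processed directly (ex vivo) or stimulated through CD3 and CD28 for 4 h, with both antibodies bound to the plate at 1 µg/ml each. Both genotypes were taken in both states, which made 4 groups of 3 libraries. No group was cultured without the antibodies. Each stimulation effect below therefore joins CD3 and CD28 signals with 4 h of culture, and these cannot be told apart.

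GBPs are large GTPases of the dynamin superfamily that hydrolyse GTP to GMP and assemble on membranes around intracellular parasites and bacteria. They are among the most strongly interferon-induced proteins known. Interferon-gamma acts through its receptor and the kinases Jak1 and Jak2, and Irf1 is among the transcription factors that switch on the GBP genes. Some members, among them Gbp2 and Gbp5, end in a motif to which an isoprenyl lipid is attached, and this anchors them to membranes. They act beside the immunity-related GTPases (IRGs), and T cells also express them. Ikaros, the product of Ikzf1, binds DNA through zinc fingers and is known in T cells as a repressor of inflammatory cytokine genes, including Ifng.

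The mouse family lies in a pair of clusters. On mm9 (NCBIM37, GENCODE vM1 annotation) the chromosome 3 cluster held, on the plus strand, Gbp5 (ENSMUSG00000040264, 142159864 to 142185308), Gbp7 (ENSMUSG00000040253, 142193302 to 142213047), Gbp3 (ENSMUSG00000028268, 142223016 to 142236173) and Gbp2 (ENSMUSG00000028270, 142283566 to 142300972). The chromosome 5 cluster held, on the minus strand, Gbp8 (ENSMUSG00000034438, 105443172 to 105482580), Gbp9 (ENSMUSG00000029298, 105507413 to 105539311), Gbp4 (ENSMUSG00000079363, 105544786 to 105568605) and Gbp6 (ENSMUSG00000079362, 105699723 to 105722718). All 8 are annotated as protein coding, and none of their exons overlapped an exon of another gene. Gbp1, Gbp10 and Gbp11 were the other Gbp genes in the table.

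Promoter sequences are shown because interferon factors act through short motifs near the start of such genes. The members shown are those with a sequence at hand, the 4 of the chromosome 3 cluster. All 4 were higher in stimulated cKO than in stimulated WT Treg. So were Gbp4, Gbp6 and Gbp8 of chromosome 5, for which no sequence was at hand. RefSeq sequence on GRCm38.p6, 250 bases before to 50 bases after the start, was at hand for 4 of the 8 members, Gbp2, Gbp3, Gbp5 and Gbp7. It covers chr3:142620413-142620712 for Gbp2, chr3:142496684-142496983 for Gbp5, chr3:142559794-142560093 for Gbp3 (the first of 2 entries) and chr3:142530086-142530385 for Gbp7, all read 5′ to 3′ on the plus strand. Capitals mark matches to the core of an interferon-stimulated response element, GAAANNGAAA on either strand.
Gbp2 promoter: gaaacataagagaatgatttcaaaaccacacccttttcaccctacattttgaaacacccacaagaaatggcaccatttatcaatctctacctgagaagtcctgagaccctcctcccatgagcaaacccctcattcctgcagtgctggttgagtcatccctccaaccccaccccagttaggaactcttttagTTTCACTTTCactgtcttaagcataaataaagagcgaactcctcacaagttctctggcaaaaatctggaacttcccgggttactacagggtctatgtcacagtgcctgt
Gbp5 promoter: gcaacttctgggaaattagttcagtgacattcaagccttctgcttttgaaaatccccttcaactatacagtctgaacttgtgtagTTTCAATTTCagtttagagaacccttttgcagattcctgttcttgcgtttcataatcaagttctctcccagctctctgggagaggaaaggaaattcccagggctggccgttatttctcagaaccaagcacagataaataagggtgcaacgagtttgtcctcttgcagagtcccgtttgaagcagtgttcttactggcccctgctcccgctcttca
Gbp3 promoter: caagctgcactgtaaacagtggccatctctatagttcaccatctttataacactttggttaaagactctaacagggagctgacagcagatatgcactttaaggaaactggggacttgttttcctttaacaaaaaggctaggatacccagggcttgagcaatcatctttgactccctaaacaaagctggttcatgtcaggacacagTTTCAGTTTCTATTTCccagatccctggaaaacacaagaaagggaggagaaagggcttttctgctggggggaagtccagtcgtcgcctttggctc
Gbp7 promoter: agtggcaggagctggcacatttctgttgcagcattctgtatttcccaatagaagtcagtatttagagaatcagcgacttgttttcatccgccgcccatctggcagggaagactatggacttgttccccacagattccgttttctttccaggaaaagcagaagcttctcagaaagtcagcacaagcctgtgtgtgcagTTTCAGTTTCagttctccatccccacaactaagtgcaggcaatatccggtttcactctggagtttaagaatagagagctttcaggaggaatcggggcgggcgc
Each of these 4 promoters held the core on the minus strand, so the printed plus strand reads TTTCNNTTTC. The match began 59 bases before the start in Gbp2, 165 in Gbp5 and 53 in Gbp7, and in Gbp3 a pair of overlapping matches began 45 and 39 bases before it. The core occurred in 3.44% of all 32851 promoter windows of the same length. The core of a gamma-activated site, TTCNNNGAA, a sequence found in interferon-gamma-responsive genes, occurred in 2 places each in Gbp5 and Gbp7, was not matched in the windows of Gbp2 and Gbp3, and occurred in 8.30% of all windows. The GGGAA core bound by Ikaros occurred 1 time in Gbp2, 2 times each in Gbp3 and Gbp5 and 3 times in Gbp7 on both strands together, and in 62.7% of all windows. In Gbp5 the first gamma-activated core, TTCTGGGAA, contains one of the GGGAA matches, so the counts of these 2 motifs are not separate there, and in Gbp3 one GGGAA match overlaps the second response element core. A match describes letters, not binding.

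The libraries held between 8208659 and 20247649 reads in genes, and each member was covered by 210 to 5877 reads in each library. Ikzf1, the targeted gene, averaged 105 ± 20.6 TPM in WT and 41.9 ± 2.82 in cKO ex vivo, and 74.8 ± 8.48 and 25.2 ± 7.43 after stimulation (SD, n = 3), so every group was ordered as labelled. TPM are transcript abundances per length that sum to 1000000 in each library. A single row, Gm10800, took 17.7 to 39.8% (WT) and 20.4 to 24.4% (cKO) of the TPM ex vivo, and 32.6 to 44.4% (WT) and 42.9 to 55.9% (cKO) after stimulation, which lowers the TPM of all other genes. Values below are therefore scaled TPM, the deposited TPM divided by a factor per library (0.732 to 1.210) from the trimmed mean of M-values of the 13318 genes that reached 5 TPM in at least 1 group, unless deposited TPM are named. WT ex vivo replicate 3 alone carried Xist (179 TPM against at most 1.36 elsewhere) and is from a female, while the other 11 libraries expressed the Y-linked Ddx3y. The 8 Treg markers, Foxp3 and Il2ra among them, summed to 963 to 2518 deposited TPM and none was under 5 TPM in any group. The lists for B cells, myeloid cells, neutrophils, NK cells, CD8 T cells and erythroid cells are given with the stimulated comparison.

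Treg expressed all 8 GBP genes before any stimulation. In WT ex vivo libraries, in order of level, Gbp4 stood at 48.6 ± 2.70 scaled TPM, Gbp9 at 39.9 ± 5.01, Gbp2 at 36.7 ± 6.16, Gbp7 at 29.7 ± 2.83, Gbp3 at 24.3 ± 0.757, Gbp8 at 22.5 ± 2.10, and Gbp5 and Gbp6 at 18.2 ± 2.63 and 18.2 ± 1.19 (SD, n = 3). The libraries of Gbp9 and Gbp2, of Gbp3 and Gbp8, and of Gbp5 and Gbp6 overlapped, and the other neighbours in this order did not. The highest, Gbp4, lay above 89.4% of the genes tested and the lowest above 69.1%. Gbp1 and Gbp11 were rare, with group means of 2.54 to 4.03 and 1.91 to 3.33 deposited TPM, and were not tested. The family summed to 238 ± 10.7 scaled TPM in WT ex vivo and 235 ± 11.2 in cKO ex vivo.

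**Figure D1:**
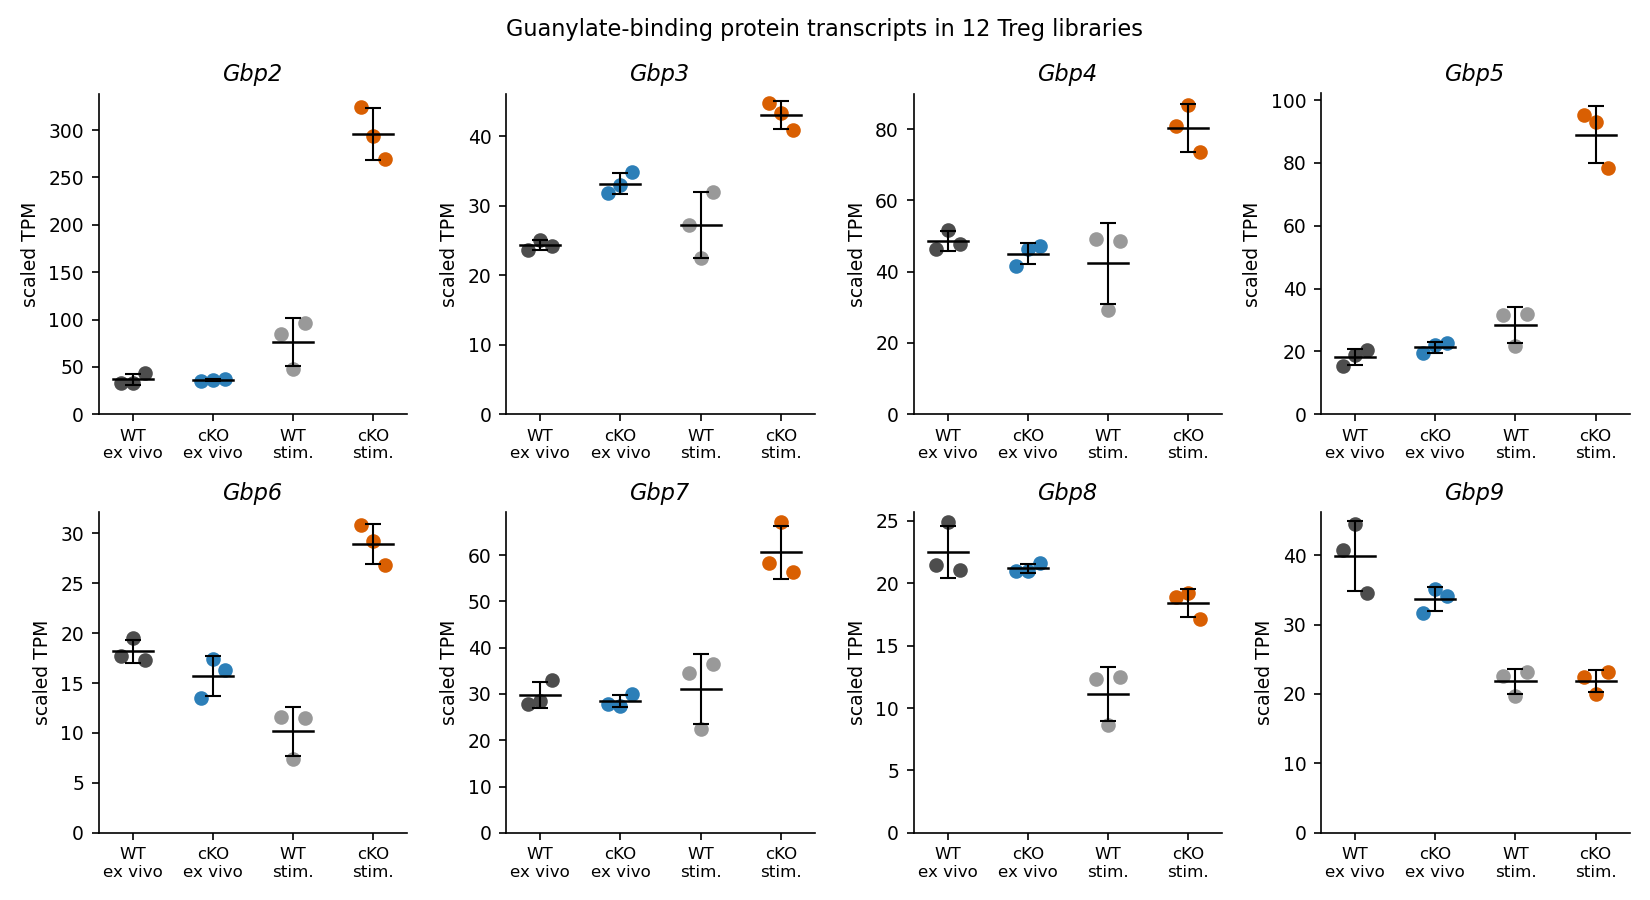
Scaled TPM of the 8 GBP genes in each of the 12 libraries (points; vertical axes start at 0 and differ between genes), with the mean and SD of each group of 3 (horizontal line and bars). For 7 genes the 3 cKO stimulated libraries lie above the 3 WT stimulated libraries, while for Gbp9 the stimulated groups coincide at 21.8 scaled TPM.

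The genotype effect ex vivo asks whether Treg without Ikaros carry more or less GBP transcript when processed directly. Gbp3 was the single member called (adjusted p under 0.05 by limma), and 3.62% of the 13318 genes tested were called as higher in cKO in this comparison. Gbp3 stood at 23.6, 25.1 and 24.2 scaled TPM in WT and at 31.8, 32.9 and 34.8 in cKO. Every cKO library lay above every WT library, as it did for 11.6% of the genes tested, and the log2 change was 0.43 (SE 0.11, adjusted p = 0.0453 by limma). This call sits at the threshold: leaving out any one ex vivo library gave adjusted p-values of 0.0842 to 0.153 by limma, with log2 changes of 0.40 to 0.46.

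The membrane-anchored members showed no such call ex vivo. Gbp2 stood at 33.0, 33.4 and 43.8 scaled TPM in WT and 35.5, 36.3 and 37.3 in cKO, with a log2 difference of -0.00 and a 95% interval of -0.48 to 0.47. The highest WT value was from the female library, and without it the log2 difference was 0.13. Gbp5 stood at 15.3, 18.8 and 20.5 in WT and 19.4, 22.2 and 22.6 in cKO, with overlapping groups and a log2 difference of 0.23 (interval -0.11 to 0.57). The log2 differences of the remaining members were -0.06 for Gbp7, -0.11 for Gbp4, -0.20 for Gbp6, -0.08 for Gbp8 and -0.23 for Gbp9 (unadjusted p = 0.0468, adjusted p = 0.270 by limma). The median over the 8 members was -0.07, against -0.01 over all genes tested. On deposited TPM the differences of Gbp2, Gbp4, Gbp6, Gbp7 and Gbp8 turned positive, and the median of all genes was then 0.21.

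The stimulation effect in WT asks how the family responds when Ikaros is present. Of the 8 members, 2 rose, Gbp2 and Gbp5 of the chromosome 3 cluster, and 3 fell, Gbp6, Gbp8 and Gbp9 of the chromosome 5 cluster. Over all genes tested 12.7% were called as higher and 19.3% as lower. Gbp2, which coats the vacuoles of Toxoplasma, went from 33.0, 33.4 and 43.8 scaled TPM ex vivo to 84.5, 47.8 and 96.2 after stimulation. Both other stimulated libraries lay well above replicate 2, and the log2 change was 0.98 (SE 0.22, adjusted p = 0.00535 by limma). Gbp5, which promotes inflammasome assembly, reached 31.5, 21.8 and 31.8 scaled TPM, a log2 change of 0.60 (SE 0.15, adjusted p = 0.0120 by limma). It missed the threshold narrowly, at adjusted p-values of 0.0503 to 0.0510 by limma, without WT ex vivo replicate 1, WT stimulated replicate 1 or WT stimulated replicate 3. With the factors of a 1 TPM filter neither rise was called, at 0.73 for Gbp2 and 0.36 for Gbp5.

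The falls in WT were of similar size in the 3 genes. Gbp6 went from 17.7, 19.5 and 17.3 to 11.6, 7.34 and 11.5 scaled TPM, a log2 change of -0.81 (SE 0.15, adjusted p = 0.00225 by limma). Gbp8 went from 21.5, 24.9 and 21.1 to 12.3, 8.66 and 12.5, a log2 change of -0.96 (SE 0.12, adjusted p = 0.000192 by limma). Gbp9 went from 40.7, 44.5 and 34.5 to 22.6, 19.7 and 23.1, a log2 change of -0.84 (SE 0.10, adjusted p = 0.000153 by limma). Of these 3 calls, only that of Gbp6 was lost on deposited TPM (-0.62). Gbp3, Gbp4 and Gbp7 were not called, with log2 changes of 0.14 (95% interval -0.10 to 0.39), -0.23 (-0.60 to 0.14) and 0.04 (-0.30 to 0.39). In bulk RNA, fewer cells that express a gene and less RNA per cell cannot be told apart.

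In cKO Treg the same stimulation raised most of the family. Of the 8 members, 6 rose and 1, Gbp9, fell, against 17.3% of all genes called as higher and 26.5% as lower. Gbp2 went from 35.5, 36.3 and 37.3 to 324, 294 and 270 scaled TPM, a log2 change of 2.99 (SE 0.22, adjusted p = 3.8e-06 by limma) or 7.93-fold. Gbp5 went from 19.4, 22.2 and 22.6 to 95.1, 93.1 and 78.5, a log2 change of 2.00 (SE 0.15, adjusted p = 5.34e-06 by limma). Both were the members with the largest rise in WT as well, at a smaller size.

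The other 4 members that rose were Gbp3, Gbp4 and Gbp7, which were not called in WT, and Gbp6, which had fallen there. Gbp7 went from 27.8, 27.5 and 29.9 to 58.4, 67.1 and 56.3 scaled TPM (log2 change 1.06, adjusted p = 0.000381 by limma), and Gbp4 from 41.6, 46.5 and 47.1 to 80.8, 86.9 and 73.5 (0.82, adjusted p = 0.00295 by limma). Gbp6, which fell in WT, went from 13.5, 17.4 and 16.3 to 30.8, 29.2 and 26.8 (0.84, adjusted p = 0.00144 by limma). Of the 6 that rose, Gbp3 moved least, by 0.36 (adjusted p = 0.0212 by limma), and was no longer called without cKO ex vivo replicate 1 (0.33), cKO stimulated replicate 1 (0.34) or cKO stimulated replicate 2 (0.31). Gbp9 fell by 0.60 (adjusted p = 0.00112 by limma), a call that was lost with quantile normalization (-0.27, adjusted p = 0.139 by limma), and Gbp8 was not called at -0.20 (95% interval -0.47 to 0.08). With the factors of a 1 TPM filter the log2 changes of Gbp3, Gbp4, Gbp6 and Gbp7 dropped to -0.17, 0.28, 0.32 and 0.53 and were not called, and Gbp8 was called as lower at -0.72, with the median of all genes moved by -0.50.

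**Figure D2:**
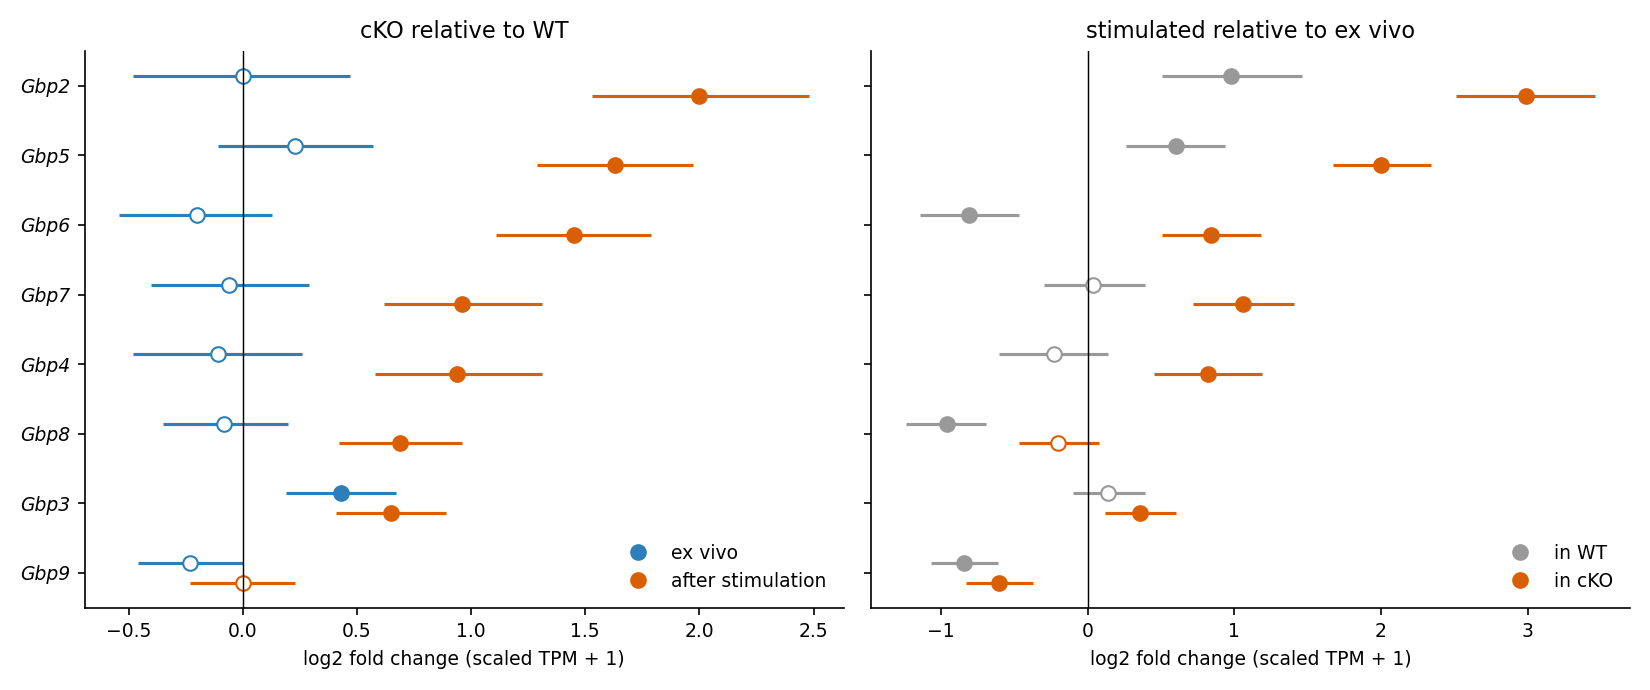
Log2 fold changes of scaled TPM + 1 for each GBP gene (points) with 95% intervals (lines), for cKO relative to WT (left) and stimulated relative to ex vivo (right); filled points passed an adjusted p of 0.05. Ex vivo the genotype changes lie between -0.23 and 0.43, and after stimulation 7 of 8 lie between 0.65 and 2.00.

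After stimulation, cKO Treg held more GBP transcript than WT Treg. Of the 8 members, 7 were called as higher in cKO, against 3.30% of all genes tested, and the remaining member was Gbp9. The median log2 difference of the 8 was 0.95, against -0.03 over all genes. Every cKO library lay above every WT library for the same 7 genes, as it did for 12.8% of the genes tested. Summed over the family, the level was 248 ± 60.3 scaled TPM in WT and 638 ± 46.4 in cKO (SD, n = 3), and the share of Gbp2 in that sum rose from 30.1 ± 3.23% to 46.4 ± 1.51%.

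Gbp2 and Gbp5, the lipid-anchored members, differed most. Gbp2 stood at 84.5, 47.8 and 96.2 scaled TPM in WT and at 324, 294 and 270 in cKO, a log2 difference of 2.00 (SE 0.22, 95% interval 1.53 to 2.48, adjusted p = 0.000397 by limma) or 4.00-fold. Gbp5 stood at 31.5, 21.8 and 31.8 in WT and at 95.1, 93.1 and 78.5 in cKO, a log2 difference of 1.63 (SE 0.15, interval 1.29 to 1.97, adjusted p = 0.000218 by limma) or 3.09-fold. The lowest cKO library and the highest WT library stood at 270 and 96.2 for Gbp2 and at 78.5 and 31.8 for Gbp5. In deposited TPM the same libraries read 94.6, 44.6 and 116 against 342, 262 and 198 for Gbp2, and 35.3, 20.4 and 38.4 against 100, 83.0 and 57.5 for Gbp5.

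The other members of the chromosome 3 cluster differed less. Gbp7 stood at 34.5, 22.5 and 36.5 scaled TPM in WT and 58.4, 67.1 and 56.3 in cKO, a log2 difference of 0.96 (SE 0.16, adjusted p = 0.00447 by limma). Gbp3 stood at 27.2, 22.4 and 32.0 in WT and 44.8, 43.3 and 40.8 in cKO, a log2 difference of 0.65 (SE 0.11, adjusted p = 0.00527 by limma). Of the 7 called, Gbp3 is the member that was also called ex vivo, at 0.43.

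The chromosome 5 members ran from a large difference to none. Gbp6 stood at 11.6, 7.34 and 11.5 scaled TPM in WT and 30.8, 29.2 and 26.8 in cKO, a log2 difference of 1.45 (SE 0.15, adjusted p = 0.000356 by limma). Gbp4 stood at 49.1, 29.3 and 48.6 in WT and 80.8, 86.9 and 73.5 in cKO, a log2 difference of 0.94 (SE 0.17, adjusted p = 0.00729 by limma). Gbp8 stood at 12.3, 8.66 and 12.5 in WT and 18.9, 19.2 and 17.1 in cKO, a log2 difference of 0.69 (SE 0.12, adjusted p = 0.00760 by limma). All 3 of these cKO values still lay below every cKO ex vivo value of Gbp8 (21.0 to 21.6), so its higher level in cKO is relative to the fall in WT. Gbp9 stood at 22.6, 19.7 and 23.1 in WT and 22.4, 20.0 and 23.1 in cKO, a log2 difference of 0.00 with a 95% interval of -0.23 to 0.23.

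The order of levels changed accordingly. In cKO stimulated libraries Gbp2 led at 296 ± 27.2 scaled TPM, above 99.4% of the genes tested, followed by Gbp5 at 88.9 ± 9.07, Gbp4 at 80.4 ± 6.71, Gbp7 at 60.6 ± 5.75, Gbp3 at 42.9 ± 2.05, Gbp6 at 28.9 ± 2.00, Gbp9 at 21.8 ± 1.67 and Gbp8 at 18.4 ± 1.14. All neighbours except Gbp5 and Gbp4 were separated in all 3 libraries. In WT stimulated libraries Gbp2 led as well, at 76.1 ± 25.2, but it overlapped Gbp4 at 42.3 ± 11.3, and among neighbours in the order the libraries separated only Gbp9 at 21.8 ± 1.81 from Gbp8 at 11.2 ± 2.16. Gbp9, which ranked above Gbp7 and Gbp5 ex vivo in both genotypes, ranked below them in both after stimulation.

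WT stimulated replicate 2 was the lowest WT stimulated library for all 8 members. Without it, the log2 differences of Gbp2, Gbp5 and Gbp6 were 1.70, 1.46 and 1.25, and 7 members were called, as they were when any other single library was left out. Fitted on the stimulated libraries alone, 5 were called, with Gbp4 at 0.97 (adjusted p = 0.0603 by limma) and Gbp8 at 0.71 (adjusted p = 0.0581 by limma). The scaling moved the count further. On deposited TPM every cKO library lay above every WT library for 3 members, Gbp2, Gbp5 and Gbp6, as it did for 3.68% of the genes tested, and these 3 were called. With the factors of a 1 TPM filter 1 member was called, Gbp2 at 1.69, and with no filter none was, with 5 members under an unadjusted p of 0.05 in both. In these settings the log2 differences of the 7 ran from 0.35 to 1.70, and Gbp9 was at -0.29. Voom on the recovered reads, run on the genes of the 5 TPM filter, called 7. When the genes of at least 1 TPM were tested with the factors of the 5 TPM filter, an alternative chosen after seeing the data, 7 members were called again.

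**Figure D3:**
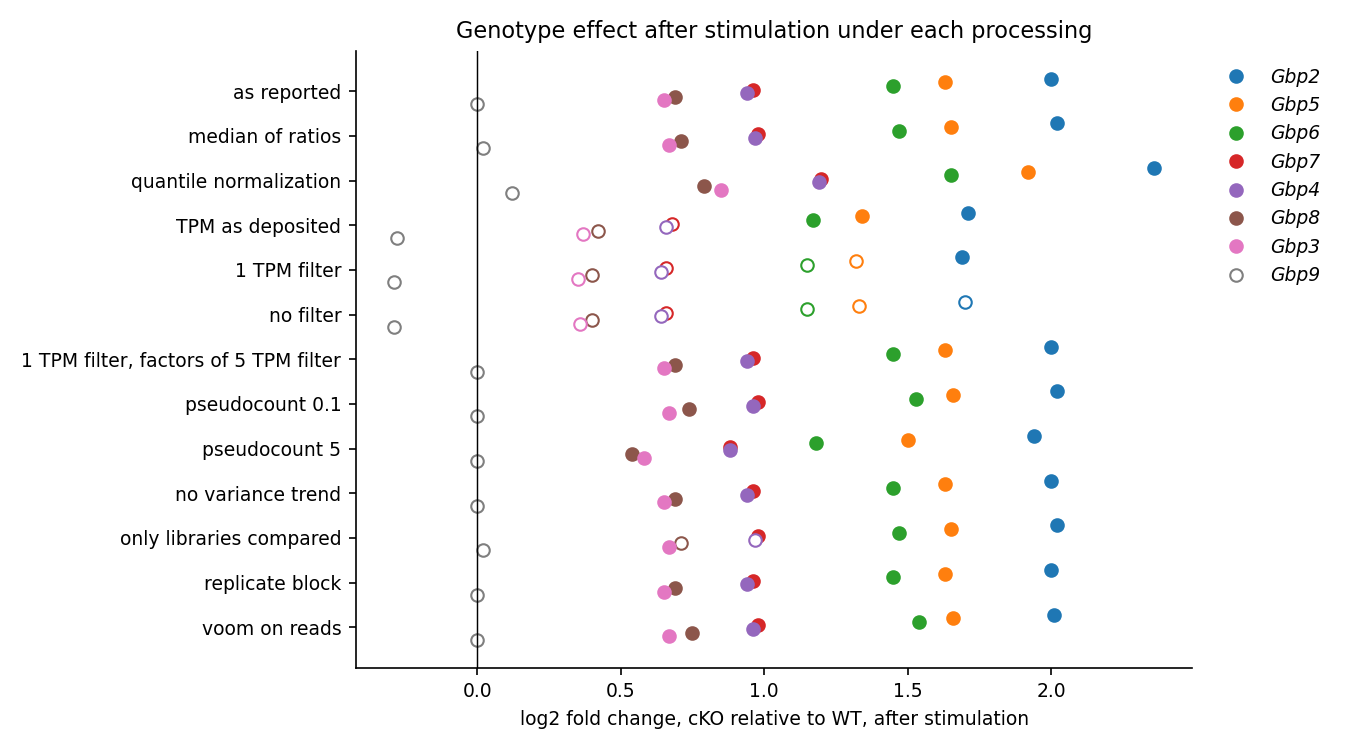
Log2 difference of each GBP gene between cKO and WT stimulated libraries (horizontal axis) under 13 ways of processing the table (rows, the values as reported on top); filled points passed an adjusted p of 0.05. The order of the genes is nearly constant, while deposited TPM, the factors of a 1 TPM filter and no filter move all 8 to the left by a similar amount.

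Transcripts of other cell types were low in every group. The 5 B cell markers summed after stimulation to 11.7 to 16.9 deposited TPM (WT) and 15.6 to 20.7 (cKO), and ex vivo to 11.6 to 14.9 and 18.6 to 25.8. The 8 myeloid markers summed to 17.7 to 24.0 and 17.3 to 27.4 after stimulation, with each marker under 5 TPM on average. The 3 neutrophil markers summed to 3.95 to 6.91 and 3.59 to 6.17, the 3 NK cell markers to 5.88 to 7.21 and 6.67 to 8.64, the 2 CD8 T cell markers to 10.8 to 16.3 and 8.84 to 13.0, and the 2 erythroid markers to 1.16 to 2.59 and 1.40 to 3.25. Except for 1 erythroid gene in WT stimulated libraries, none of these markers was at 0 throughout a group. The B cell marker sums did not overlap between the ex vivo genotypes and overlapped between the stimulated ones. Cd79b, the one B cell marker that reached 5 TPM, stood at 3.67 ± 1.62 scaled TPM in WT stimulated and 7.81 ± 1.14 in cKO stimulated libraries (log2 difference 0.96, adjusted p = 0.0283 by limma, up to 0.111 without one library). Of the Treg markers, Foxp3 and Il2ra were higher in cKO after stimulation, by 0.96 and 0.80 (adjusted p = 0.00847 and 0.00971 by limma). None of these 3 genes was called on deposited TPM, with the factors of a 1 TPM filter or with no filter. The study reports larger total and effector Treg pools, and a smaller naive pool, in spleen and lymph nodes of cKO mice. The part of cell composition in the results, also among Treg subsets, was not tested.

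The interaction asks whether stimulation acted differently in the 2 genotypes. It passed the test for 3 members, against 0.451% of all genes called as higher. The stimulation effect in cKO exceeded that in WT by 2.00 on the log2 scale for Gbp2 (SE 0.30, 95% interval 1.33 to 2.67, adjusted p = 0.0137 by limma), by 1.65 for Gbp6 (SE 0.22, interval 1.18 to 2.13, adjusted p = 0.0122 by limma) and by 1.40 for Gbp5 (SE 0.22, interval 0.92 to 1.88, adjusted p = 0.0148 by limma). Gbp4, Gbp7 and Gbp8 came to 1.05, 1.02 and 0.77 with adjusted p-values of 0.0655, 0.0561 and 0.0671 by limma, and quantile normalization or voom on the recovered reads placed all 3 under 0.05. Gbp3 and Gbp9 came to 0.22 and 0.24, with intervals of -0.12 to 0.56 and -0.09 to 0.56. On deposited TPM, with the factors of a 1 TPM filter and with no filter, no interaction was called by limma and 3 to 4 were under an unadjusted p of 0.05, with 1.48 or more for Gbp2, 0.89 or more for Gbp5 and 1.15 or more for Gbp6.

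Gbp6 needs a further limit. Of the 51-base stretches of its coding transcripts, 79.6% also occurred in another gene, 75.0% in Gbp10, its neighbour on chromosome 5. Read pairs of 51 bases that fall there cannot be assigned, so the level of Gbp6 is uncertain. Gbp10 itself, not one of the 8, stood at 3.04, 1.99 and 2.90 scaled TPM in WT stimulated and 7.20, 6.38 and 6.28 in cKO stimulated libraries, a log2 difference of 1.08 (SE 0.18, adjusted p = 0.00497 by limma). This call was lost on deposited TPM, with the factors of a 1 TPM filter and with no filter. Of the 51-base stretches of Gbp10, 78.3% also occurred in another gene, so its level is uncertain too. Gbp10 fell by 0.98 with stimulation in WT (adjusted p = 0.00174 by limma), as Gbp6 did. The other members shared less with any gene, from 1.93% in Gbp5 and 1.95% in Gbp2 to 11.8% in Gbp4 and 17.7% in Gbp8.

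Across the 12 libraries the members fell along a gradient from Gbp2 to Gbp9. Pearson correlations of log2 values, given as a description since all pairs share their libraries and the group differences, were 0.99 for Gbp2 with Gbp5, 0.95 for Gbp2 with Gbp7 and 0.95 for Gbp4 with Gbp7. Gbp6 followed Gbp4 (0.91) more than Gbp2 (0.60). Gbp9 ran against Gbp2 (-0.74) and with Gbp8 (0.74). The median over the 28 pairs was 0.68. After stimulation the genotype difference had a median of 1.30 in the chromosome 3 cluster (range 0.65 to 2.00) and 0.82 in the chromosome 5 cluster (range 0.00 to 1.45), and stimulation in WT had medians of 0.37 and -0.82.

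Genes around the clusters were not called between the stimulated groups, where 6.93% of all genes tested were called. Of genes other than Gbp genes, 5 lay within 500 kb of the chromosome 3 members and were tested, and their adjusted p-values ran from 0.166 to 0.630 by limma. The protein-coding ones among them were Pkn2, a kinase (log2 difference -0.13), Gtf2b, a general transcription factor (0.13), and Pdlim5, a scaffold protein (0.12), while the small RNA genes U6 and SNORA17 stood at 0.72 and 1.59. Around the chromosome 5 members 10 were tested, with log2 differences of -0.09 to 1.04 and adjusted p-values of 0.227 to 0.979 by limma. Ex vivo, Abcg3 was lower in cKO by -0.44 (adjusted p = 0.0427 by limma) and C230066G23Rik higher by 0.59 (adjusted p = 0.0281 by limma), both near the chromosome 5 members.

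The interferon pathway was followed from ligand to target. Ifng, which encodes the main inducer of GBPs, averaged 22.5 ± 4.31 scaled TPM in WT and 71.2 ± 19.4 in cKO ex vivo, and 4.00 ± 1.08 and 28.5 ± 9.67 after stimulation (SD, n = 3). It was higher in cKO by 1.60 on the log2 scale ex vivo (adjusted p = 0.00616 by limma, though not called with the factors of a 1 TPM filter or with no filter) and by 2.54 after stimulation (adjusted p = 0.000325 by limma). With stimulation its log2 change was -2.24 in WT (adjusted p = 0.000106 by limma) and -1.30 in cKO (adjusted p = 0.00277 by limma), while Gbp2 rose in both. Ifnb1 was under 5 TPM in every group. Ifng was called between genotypes in both states, while Gbp2, Gbp4, Gbp5, Gbp6, Gbp7 and Gbp8 were called between genotypes after stimulation and not ex vivo.

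Of the 4 interferon receptor genes, 1 was called between genotypes in each state. Over all genes tested the share called was 5.29% ex vivo and 6.93% after stimulation. Ifngr1, a chain of the interferon-gamma receptor, was lower in cKO ex vivo by -0.97 (adjusted p = 0.00498 by limma, though not called on deposited TPM, with the factors of a 1 TPM filter or with no filter) and stood at 236 ± 24.5 and 215 ± 34.8 scaled TPM after stimulation. Of the 4 receptor genes, 1 was called between the stimulated groups, Ifnar1, lower in cKO by -0.72 (adjusted p = 0.0105 by limma), and it was not called without WT stimulated replicate 2 (-0.65, adjusted p = 0.0569 by limma) or with the factors of a 1 TPM filter or no filter. Of the kinase genes Jak1, Jak2 and Tyk2, none was called between genotypes by limma with the settings used for the values here, 1 of 3 was under an unadjusted p of 0.05 in each state, and voom called 1 in each. By limma 1 was called ex vivo with quantile normalization, and 1 after stimulation without cKO ex vivo replicate 2 or cKO stimulated replicate 2.

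Several transcription regulators of the interferon response were higher in stimulated cKO Treg. Of 8 tested, 5 were called as higher, Stat2, Irf1, Irf7, Irf8 and Nlrc5 (the transactivator of MHC class I genes), with a median over the list of 0.71, and the count was 3 without WT stimulated replicate 2 or cKO stimulated replicate 1. In both cases Irf7 and Nlrc5 were lost, and over all fits that left out a library their adjusted p-values reached 0.157 and 0.0582 by limma. With the stimulated libraries fitted alone the count was 3 as well. Stat2, which with Irf9 binds interferon-stimulated response elements, stood at 16.6 ± 1.97 scaled TPM in WT stimulated and 32.6 ± 1.55 in cKO stimulated libraries, a log2 difference of 0.94 (adjusted p = 0.000561 by limma). Irf1 stood at 61.2 ± 9.74 and 110 ± 5.98 scaled TPM, a log2 difference of 0.85 (adjusted p = 0.00151 by limma). Unlike Gbp2, Irf1 was below its ex vivo level in both stimulated groups, 129 ± 3.77 in WT and 138 ± 11.1 in cKO ex vivo. Its log2 change with stimulation was -1.07 in WT (adjusted p = 5.68e-05 by limma) and -0.32 in cKO (adjusted p = 0.0405 by limma). The cKO call was lost without cKO ex vivo replicate 1, without cKO stimulated replicate 3 and with quantile normalization. Ex vivo none of the 8 was called by limma, 2 were under an unadjusted p of 0.05, and voom called 1. On deposited TPM, with the factors of a 1 TPM filter and with no filter, none of the 8 was called after stimulation by limma, 3 were under an unadjusted p of 0.05 and 6 were positive. Voom, run on the genes of the 5 TPM filter, called 6 after stimulation.

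Among 6 inhibitors of the pathway, 3 were higher and 1 lower in stimulated cKO Treg. Socs1, which blocks Jak kinases and is itself induced by interferon, stood at 50.3 ± 11.4 scaled TPM in WT and 231 ± 51.6 in cKO, a log2 difference of 2.18 (SE 0.22, adjusted p = 0.000285 by limma). Usp18, which restrains type I interferon signalling, was higher by 1.08 (adjusted p = 0.00583 by limma) and Socs3 by 0.85 (adjusted p = 0.0179 by limma, up to 0.0646 without one library). Socs3 was also higher in cKO ex vivo, by 0.95 (adjusted p = 0.0119 by limma, up to 0.0547 without one library and 0.444 over all settings). That ex vivo call was lost with the factors of a 1 TPM filter and with no filter. Ptpn6, a tyrosine phosphatase, was lower by -0.67 (adjusted p = 0.00204 by limma). Between the stimulated groups, with the factors of a 1 TPM filter and with no filter, none of the 6 was called by limma and 3 were under an unadjusted p of 0.05. On deposited TPM 1 was called as higher and 1 as lower. With the stimulated libraries fitted alone 2 were called as higher and 1 as lower. Voom, run on the genes of the 5 TPM filter, called 4.

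The IRGs, GTPases that load onto the same vacuoles, moved in the same direction. All 9 tested were called as higher in stimulated cKO Treg, with a median of 1.16. The count was 6 without WT stimulated replicate 2, without cKO stimulated replicate 1 or with the stimulated libraries fitted alone, and on deposited TPM, with the factors of a 1 TPM filter and with no filter it was 2, with all 9 differences positive. Iigp1 stood at 31.9 ± 8.44 scaled TPM in WT and 174 ± 21.4 in cKO (log2 difference 2.44, adjusted p = 0.000112 by limma), and Igtp at 101 ± 24.2 and 261 ± 24.8 (1.39, adjusted p = 0.000648 by limma). Gm12250 was higher by 1.78, Irgm1 by 1.19, Tgtp1 by 1.16, Gm12185 by 0.98, Ifi47 by 0.95, Tgtp2 by 0.81 and Irgm2 by 0.59. Tgtp1 and Tgtp2 are near-identical copies, so their values cannot be fully separated. Stimulation in WT raised 6 of the 9, most of all Irgm2 with a log2 change of 1.96 (adjusted p = 2.72e-06 by limma), and this count was 2 without WT ex vivo replicate 1, WT stimulated replicate 1 or WT stimulated replicate 3, 3 on deposited TPM, and 1 with the factors of a 1 TPM filter or with no filter. Ex vivo no IRG was called by limma or by voom. With the settings used for the values here none was under an unadjusted p of 0.05. By limma 2 were without WT stimulated replicate 2 and 1 without WT stimulated replicate 3, and by voom 2 were.

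Genes for partners and processing of GBPs were compared between the stimulated groups, where 6.93% of all genes tested were called. Of 10 genes of the machinery that conjugates ubiquitin-like proteins to membranes and guides GBPs and IRGs there, 1 was called between the stimulated groups, Atg12, lower in cKO by -0.36 (adjusted p = 0.0443 by limma), and this call was lost in most settings, with adjusted p-values up to 0.157 without one library and up to 0.275 over all settings. None of the 5 prenylation genes was called between these groups by limma, with 1 under an unadjusted p of 0.05 and none called by voom. Of the 5 tested inflammasome genes none was called between these groups by limma, under an unadjusted p of 0.05 or by voom. Casp4, the sensor of cytosolic lipopolysaccharide released through GBPs, stood at 7.82 ± 0.550 and 8.66 ± 0.395 scaled TPM, and Aim2, a DNA sensor, at 14.8 ± 2.77 and 13.7 ± 0.632. Ex vivo, Fntb, a farnesyltransferase subunit, was lower in cKO by -0.47 (adjusted p = 0.0122 by limma) and Gabarapl1, of the membrane loading list, higher by 0.47 (adjusted p = 0.0381 by limma). Over all settings their adjusted p-values reached 0.535 and 0.803, and without one library 0.0528 and 0.147.

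**Figure D4:**
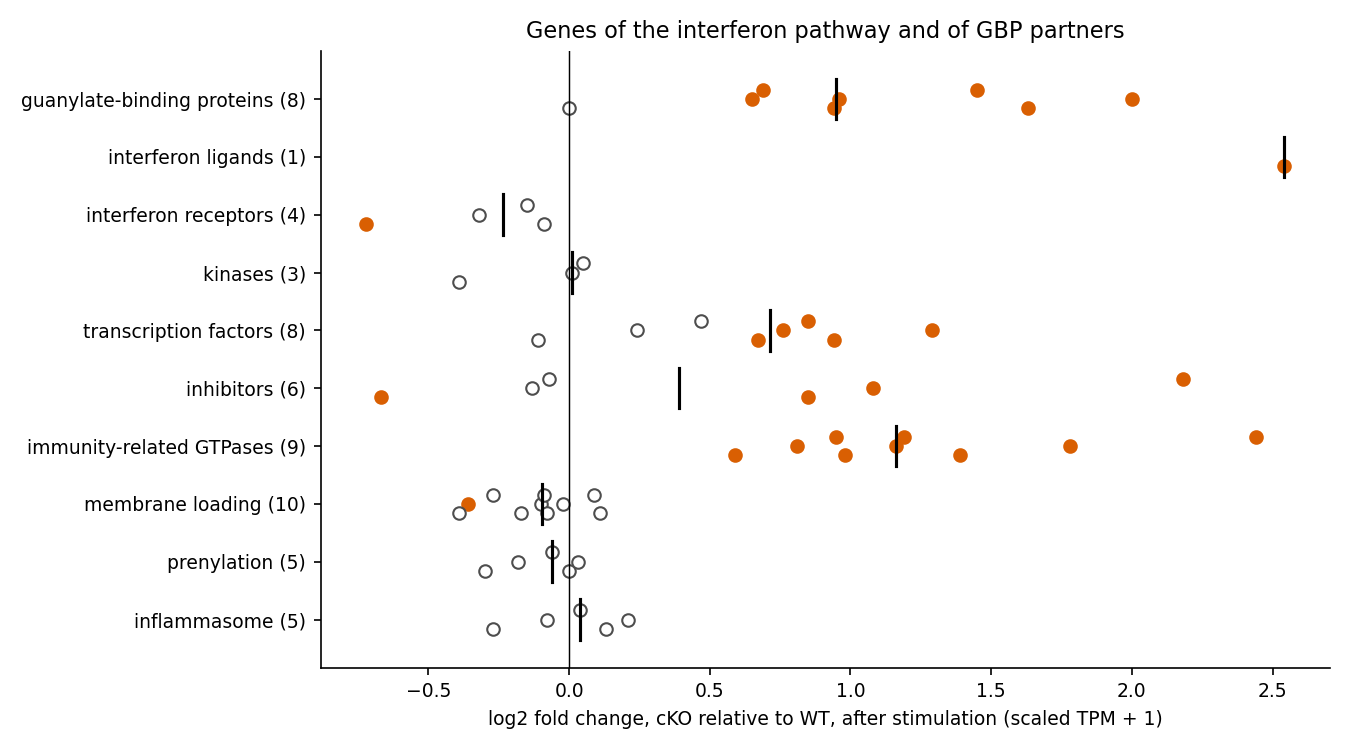
Log2 difference between cKO and WT stimulated libraries for each tested gene (points, filled where adjusted p was under 0.05) of the GBPs and of 9 lists (rows, number tested in brackets; points are offset vertically for clarity), with the median of each list (vertical bar). The GBP median is 0.95, that of the immunity-related GTPases 1.16 and that of the transcription factors 0.71, while the medians of the membrane loading, prenylation and inflammasome lists lie between -0.10 and 0.04.

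The genes outside the family whose pattern over the 12 libraries was most like the mean of the 8 standardised members were Parp14 (Pearson r = 0.956), Eif2ak2 (0.944), Socs1 (0.938), Dtx3l (0.930) and Myo6 (0.925). Parp14 and Dtx3l encode an ADP-ribosyltransferase and a ubiquitin ligase, and Eif2ak2 encodes the double-stranded RNA kinase PKR. Parp14 averaged 36.6 ± 0.663 scaled TPM in WT and 39.8 ± 1.27 in cKO ex vivo, and 33.8 ± 5.54 and 72.1 ± 9.15 after stimulation. These genes were picked out of the 13318 for their likeness over the same libraries, so the likeness and the values given here are a description with no test. Socs1 is also on the list of inhibitors and was tested there.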

How the data were processed

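Splenic CD4+ YFP+ Treg were profiled by stranded RNA-seq after rRNA depletion, with 51-base paired ends and 3 mice in each of 4 groups. Per the labels and the study's methods, reads were aligned to mm9 with STAR 2.6.0c and counted per Ensembl gene with HTSeq 0.6.1, and the authors tested them with edgeR. The deposited table gives, for each gene and library, TPM, which is recorded here as a signal because 1 column holds all libraries. It also gives a log2 value, which the authors formed as log2 of TPM plus the TPM of 1 read. From that offset whole reads were recovered for 99.9977% of 434664 values (within 0.01 of a whole number), which gives depths of 8208659 to 20247649 reads. A second deposited table holds the authors' own comparisons (log2 fold changes, F statistics and p-values) and was not used.

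Genes whose highest group mean reached 5 TPM (13318) were brought to one scale with trimmed-mean factors (30% of M and 5% of A trimmed), transformed to log2(scaled TPM + 1) and fitted with limma 3.58.1 in R 4.3.3 (one coefficient per group, trended prior variance), so that the 4 groups share one estimate of the spread. Tests are two-sided, adjusted by Benjamini-Hochberg over all 13318 genes and called at an adjusted p under 0.05. Fold changes are on the log2(scaled TPM + 1) scale, which understates changes of low genes. Intervals are 95% limma intervals and not adjusted for the number of genes. The scripts were tested on simulated data. Promoters came from RefSeq (GRCm38.p6), searched with Python 3.11.15, and shared 51-base stretches were counted among annotated transcripts.

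The members and gene lists were chosen with earlier results of these data known. Named genes are all 8 members, the other Gbp genes, the genes of the pathway lists that were called between genotypes or are needed to describe the pathway, the 5 genes most correlated with the mean standardised member, and tested genes within 500 kb of a cluster. Alternatives were filters of 1 TPM and none, other pseudocounts and scalings, deposited TPM, no trend, only the libraries compared, a replicate block, voom on recovered reads and leaving out each library. Replicate pairs within groups differed by more than sampling noise. One gene of the transcription factor list is not reported here.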

Additional observations from a re-analysis of the deposited data

Results flagged for a closer look

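The stimulation effect differed between genotypes by the interaction test for 3 of the 8 members, each with a larger effect in cKO. The difference of the log2 changes was 2.00 for Gbp2 (adjusted p = 0.0137), 1.40 for Gbp5 (adjusted p = 0.0148) and 1.65 for Gbp6 (adjusted p = 0.0122, all by limma). Gbp2 and Gbp5 rose in both genotypes, whereas Gbp6 fell in WT and rose in cKO. Gbp10, which shares most of its sequence with Gbp6, came to 1.32 (adjusted p = 0.0367 by limma). The Gbp10 call was kept in 2 of the 12 fits that left out a library (without WT ex vivo replicate 1 or cKO ex vivo replicate 2), with adjusted p-values up to 0.108, and was lost with the replicate block.

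The same test passed for the inhibitors Socs1 (2.04, adjusted p = 0.0137 by limma) and Usp18 (1.75, adjusted p = 0.0132 by limma). Among the IRGs it passed for Iigp1 (2.10, adjusted p = 0.0122), Gm12250 (1.66, adjusted p = 0.0254), Igtp (1.53, adjusted p = 0.0132), Tgtp1 (1.47, adjusted p = 0.0132) and Tgtp2 (1.10, adjusted p = 0.0454, all by limma). This count of 5 IRGs was 3 without WT ex vivo replicate 2, WT ex vivo replicate 3, cKO ex vivo replicate 1, cKO ex vivo replicate 3 or cKO stimulated replicate 1. Myo6, Dtx3l and Parp14 were picked for their likeness to the members over the same libraries, so their differences of 1.25, 0.99 and 0.96 are a description with no test. Over the 12 fits that left out a library, Gbp2, Gbp5, Gbp6, Socs1, Usp18, Iigp1, Igtp and Tgtp1 were called in 12, Gm12250 in 7 and Tgtp2 in 1. For the genes called in 12, the highest adjusted p-values ran from 0.0420 (Gbp6) to 0.0499 (Gbp5) by limma, close to the threshold. Gm12250 and Tgtp2 were also not called with the replicate block. On deposited TPM, with the factors of a 1 TPM filter and with no filter, none of these genes passed the interaction test by limma, with 3 to 4 members under an unadjusted p of 0.05. Voom on the recovered reads, run on the genes of the 5 TPM filter, called 6 members.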

How the results depend on the processing

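The counts of members called fell on deposited TPM, which changes the scaling. They also fell with a 1 TPM filter or no filter, which change the genes tested and the scaling together. With the factors of a 1 TPM filter, with no filter and on deposited TPM, the members called were 0, 0 and 0 ex vivo (1 as reported), 1, 0 and 3 between the stimulated groups (7), 3, 3 and 3 for stimulation in WT (5), 4, 4 and 4 for stimulation in cKO (7) and 0, 0 and 0 for the interaction (3). The median of the 13318 genes then moved by -0.31 and -0.30 between the stimulated groups at 1 TPM and on deposited TPM, and by -0.30 and -0.52 for the interaction. With genes of at least 1 TPM but the factors of the 5 TPM filter (chosen after seeing the data) the counts were 0, 7, 5, 7 and 3. The call ex vivo also went to 0 with median of ratios, quantile normalization, no trend and the replicate block, and quantile normalization and voom gave 6 and 6 for the interaction. Leaving out each library gave 0 to 1 members ex vivo, 7 to 7 between the stimulated groups, 4 to 5 and 6 to 7 for stimulation in WT and cKO, and 3 to 4 for the interaction.

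Differences near 0 changed sign. Ex vivo on deposited TPM, Gbp2 (-0.00 as reported) came to 0.23, Gbp4 to 0.13, Gbp6 to 0.02, Gbp7 to 0.17 and Gbp8 to 0.15, and Gbp7 ran from -0.10 to 0.01 over the left-out libraries. For stimulation in WT, Gbp3 came to -0.10 and -0.08 and Gbp7 to -0.21 and -0.18 (1 TPM, no filter), Gbp4 to 0.07 (quantile), and Gbp7 ran from -0.08 to 0.24 over the left-out libraries. For stimulation in cKO, Gbp3 came to -0.17 and -0.16 (1 TPM, no filter) and Gbp8 to 0.03 (quantile). For the interaction, Gbp3 came to -0.07, -0.08 and -0.30 and Gbp9 to -0.04, -0.06 and -0.27 (1 TPM, no filter, deposited). The 7 genotype differences called after stimulation stayed positive in every setting, from 0.35 for Gbp3 to 2.36 for Gbp2. The cause of these changes was not tested beyond the shifts given.

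Same-numbered libraries correlated at -0.21 to 0.26, over 0.1 in 2 of 18 pairs, and 6 of 12 libraries correlated best with their own number, so the numbers were not treated as pairing. With the replicate block 0, 7, 5, 7 and 3 members were called in the order above. Over all genes the calls were 704 ex vivo (56 to 1203 over the settings), 923 between the stimulated groups (68 to 1579), 4262 (1694 to 4872) and 5835 (4098 to 7723) for stimulation in WT and cKO, and 147 (0 to 395) for the interaction. Each member was covered by at least 210 recovered reads in each library.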
